A study of Mus musculus with 6 samples.

Results

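The Samt genes (spermatogenesis associated multipass transmembrane) were taken as every array cluster annotated to a symbol that begins with Samt and a digit. This gave 7 of the 35556 transcript clusters on the array, and 2 of them held identical values on every array, so 6 sets of values are described. Only 3 clusters name a single gene, for Samt3, Samt4 and Samt2b. The other 4 name several genes: 3 list Samt1, Samt1b, Samt1c, Samt1d and Gm16445 together, and 1 lists Samt2 and Samt2b. The cluster with a duplicate is called Samt1 group a here and the third Samt1 group b. The values of a shared cluster cannot be split among the genes it lists. Samt2b and the Samt1 copies each appear in more than 1 set of values, so counts over the 6 sets are not counts of separate genes. The clusters name all 8 Samt genes of the RefSeq gene table of mouse assembly GRCm38.p6, and all 8 lie on the X chromosome.

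Samt proteins are membrane proteins that cross the membrane several times and resemble claudins, the strand-forming proteins of tight junctions. They are known for their expression in the mouse testis. The X chromosome is silenced in pachytene spermatocytes by meiotic sex chromosome inactivation and stays largely repressed in round spermatids, where a set of X-linked genes is nevertheless transcribed. Rnf8 encodes a ubiquitin ligase that marks histones, both around DNA breaks and, in meiosis, on the X and Y chromosomes.

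RNA was measured on 6 arrays from males of C57BL/6 strain background, either Rnf8 knockout (KO) or wild type (WT). There was 1 array of KO round spermatids and 1 of WT round spermatids, the haploid cells after meiosis, and there were 2 arrays of KO and 2 of WT pachytene spermatocytes, cells in meiotic prophase. Fractions were obtained by gravity sedimentation of germ cells of 3 to 4 males, with a stated purity over 95% by nuclear staining. The sources used here give neither the ages of the males nor the deleted part of Rnf8, and do not say whether arrays of one kind stem from different animals.

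The cluster that lists Rnf8 also lists Gm28043, and its log2 intensity was 7.50 in KO and 7.78 in WT round spermatids, and 7.86 and 8.05 in KO against 8.51 and 8.86 in WT pachytene spermatocytes. All 3 KO arrays thus lay below the WT arrays of the same cells, but where the cluster lies relative to the deletion is not known here. The KO pachytene arrays stood apart from each other, with 183 of 17925 tested genes at least 2-fold apart, against 29 between the WT pachytene arrays. The fractions were set against fixed marker lists in a limma fit of round spermatids against pachytene spermatocytes. Over all tested genes 17.8% rose and 17.1% fell. Of 15 spermatid markers 13 rose, and of 14 pachytene markers 10 fell and 1 rose. Of 18 Sertoli markers 9 fell and 1 rose, and of 8 Leydig markers 6 fell. Of 7 macrophage and blood markers 3 rose, while peritubular and vessel markers (1 of 9 rose) and spermatogonia markers (1 of 12 rose and 1 fell) were at or below the shares of all genes. The peritubular gene that rose was Dcn, named after its values were seen, by 2.86 in log2 (SE 0.21, limma adjusted p = 1.46e-04). In a bulk fraction, fewer cells of a type and less RNA per cell cannot be told apart.

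The genes sit at 2 places on X in the RefSeq order. Samt3 lies alone, next to Nr0b1, and the other 7 lie in one stretch between the tested genes Spin2c and Sat1. Promoter windows of 300 bases from RefSeq (GRCm38.p6), running from 250 bases before the annotated start, were found for 7 of the 8 genes. The windows of Samt1 and Samt1b were identical at 299 of 300 bases and those of Samt1b and Samt1c at all 298 aligned bases, and Samt2b and Samt2 were 92.2% identical over 270 aligned columns. Samt3 aligned with Samt1 over only 93 columns, at 67.7% identity. The bases before the start are shown for 5 genes, since they stand for the clusters whose values follow. Capitals mark the 9-base and the 12-base word described next, as far as they lie before the start.
Samt3, chrX:86043949-86044198, plus strand: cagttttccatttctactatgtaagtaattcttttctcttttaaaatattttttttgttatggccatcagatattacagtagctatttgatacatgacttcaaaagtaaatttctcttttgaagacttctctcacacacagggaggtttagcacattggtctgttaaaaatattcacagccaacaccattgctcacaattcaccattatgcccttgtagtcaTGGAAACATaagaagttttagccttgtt
Samt4, chrX:154481752-154482001, plus strand: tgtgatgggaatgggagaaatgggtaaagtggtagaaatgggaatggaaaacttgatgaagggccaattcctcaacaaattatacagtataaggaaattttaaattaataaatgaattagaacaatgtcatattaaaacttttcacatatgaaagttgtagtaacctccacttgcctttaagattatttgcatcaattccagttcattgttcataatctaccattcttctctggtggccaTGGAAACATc
Samt1, chrX:154012641-154012890, minus strand: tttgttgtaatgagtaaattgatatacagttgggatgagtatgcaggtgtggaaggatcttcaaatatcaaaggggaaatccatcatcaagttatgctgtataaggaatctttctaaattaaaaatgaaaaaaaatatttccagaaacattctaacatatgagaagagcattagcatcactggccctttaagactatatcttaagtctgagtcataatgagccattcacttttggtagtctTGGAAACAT
Samt2b, chrX:154343393-154343642, minus strand: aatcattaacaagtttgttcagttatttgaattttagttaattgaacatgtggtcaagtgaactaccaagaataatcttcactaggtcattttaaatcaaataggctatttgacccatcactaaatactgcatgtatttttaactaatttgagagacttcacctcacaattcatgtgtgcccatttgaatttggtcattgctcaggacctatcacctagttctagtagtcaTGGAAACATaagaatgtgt
Samt2, chrX:154579331-154579580, minus strand: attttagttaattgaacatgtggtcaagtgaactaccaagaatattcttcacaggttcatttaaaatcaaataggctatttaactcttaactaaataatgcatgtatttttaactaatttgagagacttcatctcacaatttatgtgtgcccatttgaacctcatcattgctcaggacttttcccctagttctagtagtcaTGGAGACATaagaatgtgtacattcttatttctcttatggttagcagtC

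The longest word common to all 7 windows with 1 open position was TGGANACAT, in which N is any base. It lay close to the start in each, from 49 bases before it in Samt2 to 7 bases before it in Samt1c, and always on the coding strand. It occurred on either strand in 1.1% of all 32851 mouse windows of that length and in 3.04% of the 1216 windows on X that belong to other genes. With 2 open positions the longest word was CACTAANANTTG, which was in 0.0578% of all windows and in 0.0822% of the other X windows. It began 37 to 51 bases after the first base of the 9-base word in every Samt gene, and the stretches around it show its open positions.
Samt3, chrX:86044213-86044242, plus strand: gttaacagcCACTAACAGTTGaacttctca
Samt4, chrX:154482020-154482049, plus strand: tttggttgtCACTAATATTTGgtcttcata
Samt1, chrX:154012591-154012620, minus strand: tctaacactgggcagtCACTAACAGTTGca
Samt1b, chrX:154033778-154033807, minus strand: tctaacactgggcagtCACTAACAGTTGca
Samt1c, chrX:154054992-154055021, minus strand: tctctaacactgggcagtCACTAACAGTTG
Samt2b, chrX:154343343-154343372, minus strand: gttggcagtCACTAACATTTGaacttccta
Samt2, chrX:154579311-154579340, minus strand: gttagcagtCACTAACATTTGaacttccta

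Samt1, Samt1b, Samt1c and Samt3 carried the variant CACTAACAGTTG, Samt2 and Samt2b CACTAACATTTG, and Samt4 CACTAATATTTG. The words were picked from these same windows, so their presence in all of them is a property of the choice. The X-box bound by RFX factors, regulators of spermatid genes, was searched by its consensus on both strands. It matched 1 of the 7 windows, that of Samt4, where it overlaps the first word, and 2.17% of all windows. The cyclic AMP response element TGACGTCA, bound by the spermatid activator CREM, searched likewise, matched 0 of 7 and 1.79% of all windows. These matches describe letters and not occupied sites.

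**Figure D1:**
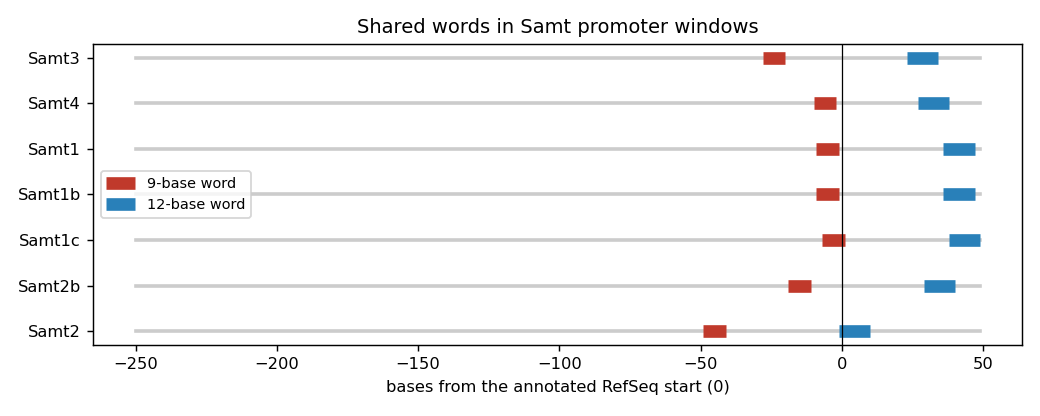
Position of the 9-base word (red) and the 12-base word (blue) in the windows of 7 Samt genes, in bases from the annotated start, with 1 grey line per window. The 9-base word lies before or across the start in every window, and the 12-base word begins 37 to 51 bases after the first base of the 9-base word.

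All values below are log2 of the deposited intensity, a relative scale on which levels of different clusters are not compared. Because the family was proposed from these same values, its differences are described without a test, and standard errors (SE) come from limma fits to all genes. The lower quartile of all clusters was at a log2 value of 6.15 to 6.28 on the 6 arrays.

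Samt4 was at 6.48 in KO and 8.65 in WT round spermatids, and at 5.55 and 5.28 in KO against 6.12 and 6.07 in WT pachytene spermatocytes. The WT spermatid array stood far above the other 5. The KO spermatid value was at the 29.3rd percentile of its array, and all 4 pachytene values lay below the lower quartile of theirs, so the size of every Samt4 difference is uncertain.

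Samt3 was at 7.41 in KO and 9.24 in WT round spermatids, and at 6.18 and 5.68 in KO against 6.99 and 7.28 in WT pachytene spermatocytes. Again the WT spermatid array was highest, and the KO spermatid array lay above the higher WT pachytene array by less than the WT pachytene pair differed. The KO pachytene values were at the 25.4th and 17.7th percentiles of their arrays, so the size of Samt3 differences that use them is uncertain.

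Samt1 group a, the cluster of the Samt1 copies, was at 9.30 in KO and 10.85 in WT round spermatids, and at 8.14 and 7.20 in KO against 8.68 and 8.57 in WT pachytene spermatocytes. Samt1 group b had the same pattern, at 8.77 in KO and 10.31 in WT round spermatids, and at 7.63 and 6.73 in KO against 8.06 and 8.09 in WT pachytene spermatocytes. Both clusters were in the middle or upper range of the arrays except on the second KO pachytene array.

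The cluster shared by Samt2 and Samt2b was at 9.26 in KO and 10.65 in WT round spermatids, and at 8.10 and 7.03 in KO against 8.81 and 9.22 in WT pachytene spermatocytes. The KO spermatid value was level with the higher WT pachytene value. The cluster that names Samt2b alone behaved otherwise. It was at 9.67 in KO and 10.20 in WT round spermatids, and at 7.963 and 6.996 in KO against 7.27 and 7.63 in WT pachytene spermatocytes, where the KO arrays lay on either side of the WT pair.

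**Figure D2:**
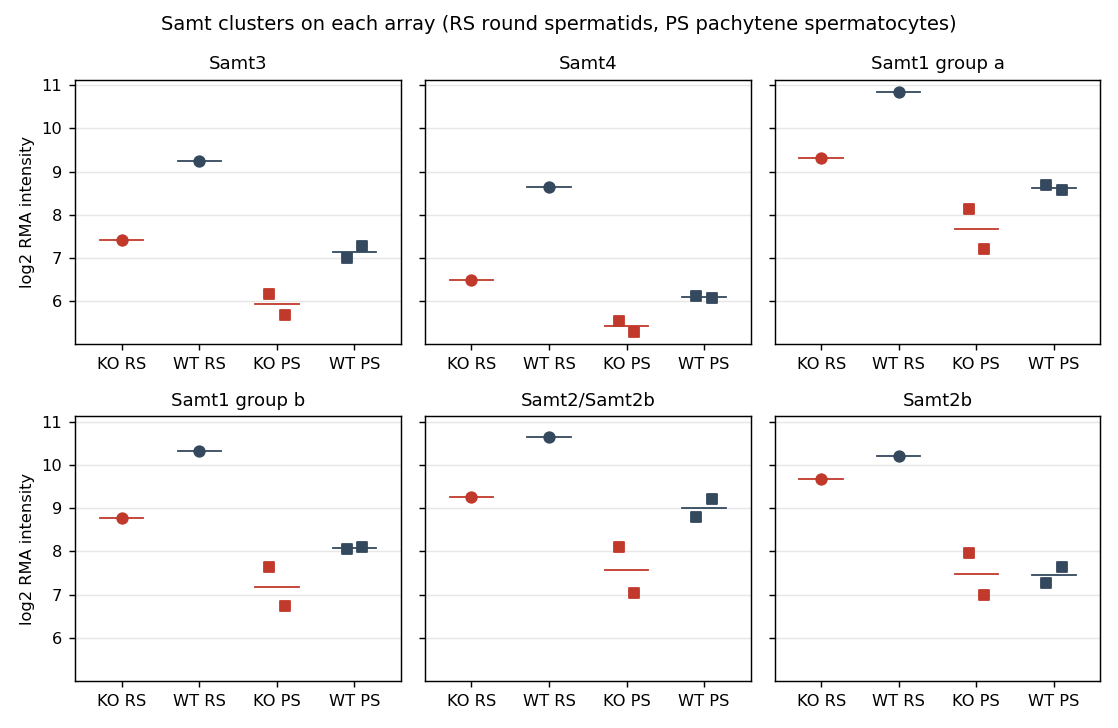
Log2 RMA intensity of the 6 Samt clusters with values of their own, 1 point per array, with KO in red, WT in dark blue, and a line at the mean of each group (KO RS and WT RS, 1 array each; KO PS and WT PS, 2 arrays each). WT round spermatids are highest in every panel, and KO lies under WT in both cell types except for Samt2b in pachytene spermatocytes, where the arrays overlap.

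In round spermatids against pachytene spermatocytes, all 6 clusters had both spermatid arrays above all 4 pachytene arrays, a pattern that 24.1% of tested genes and 45.5% of tested X-linked genes showed. Over both genotypes all 6 were at least 2-fold higher in round spermatids, as were 7.19% of tested genes and 25.3% of X-linked genes. Samt2b had the largest difference, 2.47 on the log2 scale (SE 0.27, 2 against 4 arrays). The others were 1.92 for Samt1 group a (SE 0.25), 1.91 for group b (SE 0.25), 1.81 for Samt4 (SE 0.29), 1.79 for Samt3 (SE 0.20) and 1.67 for Samt2/Samt2b (SE 0.27). These 5 lay within about 1 SE of each other. The median of all tested genes was -0.06 and that of X-linked genes 0.20.

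Within each genotype, the spermatid excess was smaller in KO than in WT for 5 of the 6 clusters. The share of all tested genes with this order was not computed. Their median difference was -0.02 in KO and -0.09 in WT, and that of X-linked genes 0.17 in KO and 0.23 in WT. Samt4 was 1.06 higher in round spermatids in KO and 2.55 higher in WT, both taken against pachytene values below the lower quartile of the arrays. Samt3 differed by 1.48 in KO, against pachytene values near or below the lower quartile, and by 2.11 in WT. Samt1 group a differed by 1.63 in KO and 2.22 in WT, group b by 1.59 and 2.23, and Samt2b by 2.19 and 2.75. Samt2/Samt2b was the exception, at 1.69 in KO and 1.64 in WT. Each genotype has 1 spermatid array, and whether the gap between genotypes exceeds array error was not tested.

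In round spermatids, KO against WT, all 6 clusters lay lower in KO, as did 40.9% of tested genes. Of the 6, 5 lay at least 2-fold lower, against 0.351% of tested genes (63 of 17925) and 5.61% of tested X-linked genes. Among the 3 clusters that name a single gene, as those of the tested genes do, Samt3 and Samt4 lay at least 2-fold lower and Samt2b did not. None of the 6 lay at least 2-fold higher, against 0.0335% of tested genes. The log2 differences were -2.17 for Samt4, -1.83 for Samt3, -1.54 for each Samt1 group, -1.39 for Samt2/Samt2b and -0.53 for Samt2b. Samt3 was thus 3.56-fold lower in KO, Samt1 group a 2.91-fold, Samt2/Samt2b 2.62-fold and Samt2b 1.45-fold. No fold is given for Samt4 because of its low KO value. Each genotype is 1 array here, so there was no replicate check and these values describe these 2 arrays. The median difference was 0.05 over all tested genes and 0.03 over X-linked genes.

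**Figure D3:**
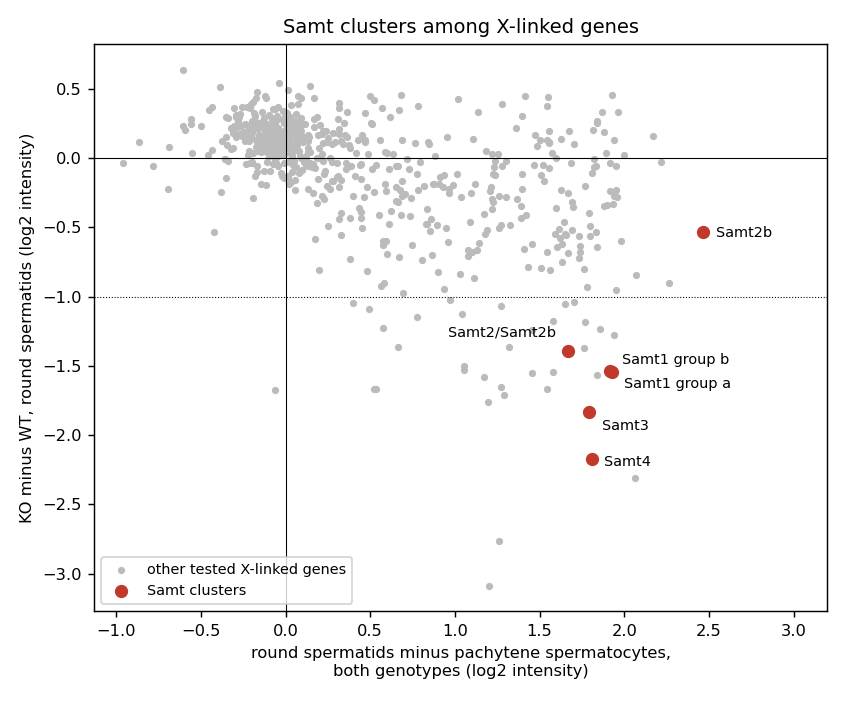
Grey points are the other tested X-linked genes, and red points are the Samt clusters, including those that name several genes. On x is the difference between round spermatids and pachytene spermatocytes over both genotypes. On y is that between the KO and WT round spermatid arrays, both in log2 intensity. The Samt clusters all lie at the right of the plot, 5 of them under the dotted line of a 2-fold lower KO value and Samt2b above it.

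In pachytene spermatocytes, KO against WT, 5 of 6 clusters had both KO arrays below both WT arrays, as had 10.2% of tested genes and 9.13% of tested X-linked genes. The log2 differences were -1.45 for Samt2/Samt2b (SE 0.33, n = 2 per genotype), -1.21 for Samt3 (SE 0.21), -0.96 for Samt1 group a (SE 0.29), -0.90 for group b (SE 0.28), -0.68 for Samt4 (SE 0.16) and 0.03 for Samt2b (SE 0.31). Across all genes the same limma fit passed 0 genes, with 430 at an unadjusted p under 0.05. The result depends in size on the KO arrays. With KO array 1 alone the differences were -0.91 for Samt2/Samt2b, -0.96 for Samt3, -0.49 for Samt1 group a, -0.45 for group b, -0.55 for Samt4 and 0.51 for Samt2b. With KO array 2 alone they were -1.98 (Samt2/Samt2b), -1.46 (Samt3), -1.42 (Samt1 group a), -1.35 (group b), -0.81 (Samt4) and -0.46 (Samt2b). The same 5 clusters lay below WT with array 1 alone, and all 6 with array 2 alone.

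All 6 clusters were higher on KO pachytene array 1 than on array 2, by 0.27 (Samt4) to 1.07 (Samt2/Samt2b), while the WT pair differed by 0.41 at most. The median of KO array 1 minus KO array 2 was -0.06 over all tested genes and -0.05 over X-linked genes. The share of genes higher on KO array 1 was not computed. Spermatid markers moved the same way as the Samt clusters between these arrays: the median of the 15 genes was 0.44 higher on KO array 1, against 0.14 between the WT arrays. The summed intensity of the 15 spermatid markers was 57348 and 44472 in KO and 48211 and 44954 in WT pachytene spermatocytes, and all 15 were well above the lower quartile there. Prm1, a sperm protamine gene named after its values were seen, was at 13.18 and 12.85 in KO and at 13.06 and 12.88 in WT pachytene spermatocytes. The part of spermatid transcripts in the pachytene values of the Samt clusters was not tested. The median KO to WT difference of the 15 markers in pachytene spermatocytes was 0.11.

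Over both cell types, the 5 clusters other than Samt2b had every KO array below every WT array of the same cells, against 7.09% of tested genes and 8.65% of X-linked genes. Samt2/Samt2b was at -1.43 (SE 0.26), Samt3 at -1.42 (SE 0.19), Samt4 at -1.18 (SE 0.28), Samt1 group a at -1.15 (SE 0.24), group b at -1.11 (SE 0.24) and Samt2b at -0.16 (SE 0.25), with 3 arrays per genotype. Samt2b had no settled direction, at -0.49 without KO pachytene array 1 and 0.06 without KO pachytene array 2, and at 0.03 without either round spermatid array. This fit passed 0 of 17925 genes in limma, with 979 at an unadjusted p under 0.05. In the same fit 11150 of all 17925 tested genes lay above WT, with a median of 0.04. So did 18 of 18 Sertoli markers (median 0.15), 9 of 9 peritubular and vessel markers (0.15) and 11 of 12 spermatogonia markers (0.16). Leydig markers were split, with 4 of 8 above WT (median 0.02), and of 7 macrophage and blood markers 2 lay above and 5 below (-0.06). The summed Sertoli marker intensity was 7654 in KO and 6885 in WT round spermatids, and 12557 and 11739 in KO against 11613 and 10056 in WT pachytene spermatocytes. The part of these cell types in the Samt values was not tested.

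Samt2b could be followed through 2 clusters, and they did not give the same answer. The cluster that names it alone had a KO to WT difference of -0.53 in round spermatids and 0.03 in pachytene spermatocytes, while the one it shares with Samt2 had -1.39 and -1.45. Over the 6 centred profiles, the root mean square distance between these 2 clusters was 0.75, the largest of all 15 pairs, while the 2 Samt1 groups were 0.05 apart. Samt3, which lies far from the others on X, was closer to Samt1 group b (0.21), Samt1 group a (0.22), Samt2/Samt2b (0.24) and Samt4 (0.26) than to Samt2b (0.72). Near-identical copies can hybridise to the same probes, so how much of the shared cluster is Samt2 and how much Samt2b is not known from these values.

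By the same distance, the tested genes outside the family with the most similar profile over the 6 arrays were named for each single-gene cluster. For Samt3 they were Gm614 (0.14), the X-linked preferentially expressed antigen gene Prame (0.24), the ubiquitin-conjugating enzyme-like gene Ube2dnl1 (0.25) and Ppp4r3c-ps (0.29), all on X, and the olfactory receptor gene Olfr112 on chromosome 17 (0.29). For Samt4 they were the centromere protein gene Cenpi (0.21), Ube2dnl1 (0.22), Prame (0.28) and 1700013H16Rik (0.28) on X and Olfr787 on chromosome 10 (0.26). Gm614 was at 8.80 in KO and 10.47 in WT round spermatids, and at 7.81 and 7.13 in KO against 8.54 and 8.88 in WT pachytene spermatocytes.

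The genes most like Samt2b were of another kind. They were Adam25 (0.17) and Adam39 (0.21) on chromosome 8, testis members of the metalloprotease-disintegrin family, Btg1b (0.17) on X, the contactin gene Cntn6 (0.18) on chromosome 6 and 4930522H14Rik (0.23) on chromosome 4. Adam25 was at 9.27 in KO and 9.71 in WT round spermatids, and at 7.91 and 6.58 in KO against 6.95 and 7.05 in WT pachytene spermatocytes. Its KO pachytene arrays lay on either side of the WT pair, as those of Samt2b did.

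The relatives nearest by name are the claudins, of which 24 were tested. In round spermatids against pachytene spermatocytes 5 of them rose and 2 fell in limma, against a background of 17.8% of tested genes rising and 17.1% falling. All 4 tested X-linked Cldn34 genes rose: Cldn34b3 by 1.86 (SE 0.19, adjusted p = 3.22e-04), Cldn34b4 by 1.84 (SE 0.21, adjusted p = 4.41e-04), Cldn34c4 by 1.80 (SE 0.12, adjusted p = 1.22e-04) and Cldn34-ps by 1.73 (SE 0.22, adjusted p = 6.91e-04). Of the 20 other claudins only Cldn13 rose, by 1.06, and Cldn11, the claudin of the Sertoli cell barrier, fell by 0.80 and Cldn12 by 0.72. These last 3 were named after their values were seen. The median over the 24 was -0.05.

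Between genotypes the Cldn34 clusters did not move as one. Cldn34b3 was at 7.90 in KO and 9.13 in WT round spermatids, and at 6.60 and 6.29 in KO against 6.80 and 6.92 in WT pachytene spermatocytes. Cldn34b4 lay the other way, at 11.32 in KO and 11.06 in WT round spermatids, and at 10.01 and 9.21 in KO against 9.12 and 9.07 in WT pachytene spermatocytes. There were 3 clusters that list Cldn34c1, Cldn34c4 and Gm2411 together, and in round spermatids their log2 differences between KO and WT were -2.08, -2.25 and -2.23, while that of the cluster naming Cldn34c4 alone was -0.56. Of these 4 clusters, the one naming a single gene had the smallest difference, as in the Samt2 pair. Across the Samt family this order did not hold, since Samt4 (-2.17) and Samt3 (-1.83), each named alone, had larger differences than any shared Samt cluster. All 4 clusters that list Cldn34c4 had both KO arrays below the WT arrays in pachytene spermatocytes. The promoter windows of 7 Cldn34 genes held neither Samt word.

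**Figure D4:**
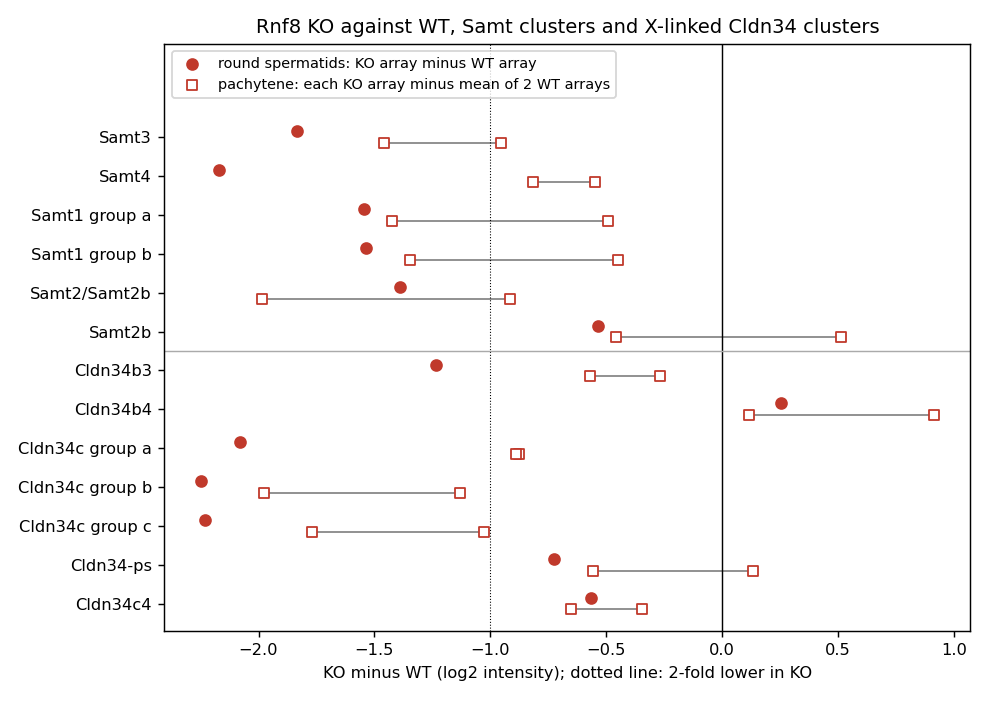
KO minus WT in log2 intensity for the Samt clusters (top) and the X-linked Cldn34 clusters (bottom, Cldn34b2 left out because it was dim on every array). Filled circles are the KO minus the WT round spermatid array, open squares are each KO pachytene array minus the mean of the 2 WT arrays, and the dotted line marks a 2-fold lower KO value. Samt2b and Cldn34b4 are the clusters whose KO pachytene array 1 lies furthest above WT.

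Spermatid-expressed genes of the acrosome, the enzyme-filled cap vesicle of sperm, were set beside the family. Of 29 tested genes of the acrosome membrane and vesicle list, 21 rose in round spermatids in limma and 1, the Golgi-associated Gopc, fell, against 17.8% and 17.1% of all tested genes. The largest rises were 2.17 for X-linked Spaca5, 1.86 for Izumo3, 1.86 for Izumo2 and 1.73 for Tmem190 (adjusted p between 1.65e-04 and 0.00145). In KO against WT round spermatids 0 of the 29 were at least 2-fold lower, which is near the 0.351% of all tested genes, and the list median was -0.06 against 0.05 over all tested genes. Spaca5, on the same chromosome as the Samt genes, was at 10.27 in KO and 10.11 in WT round spermatids.

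A list named for X-linked multicopy or clustered families was treated likewise. It also holds genes entered by their own symbol, among them Akap14 and Cylc1. Of its 45 tested members, 32 rose in round spermatids and 1, the RNA export factor gene Nxf3, fell. In X-linked genes as a whole 40.2% rose. The largest rises were 1.94 for Prame, 1.93 for Akap14, an anchoring protein gene, 1.90 for Tex13a and 1.89 for the cylicin gene Cylc1. In KO round spermatids 8 of the 45 were at least 2-fold lower, against 5.61% of tested X-linked genes and 0.351% of all tested genes. The list median was -0.24. The 4 largest differences were -1.76 for the homeobox gene Rhox11, -1.65 for Ssxb3, -1.27 for Prame and -1.23 for Cldn34b3. Samt4 and Samt3 had larger differences than any of these listed genes, and both Samt1 groups lay after Rhox11 and Ssxb3. The list leaves out clusters that name several genes, as the Samt1 groups do. The clusters shared by Cldn34c1, Cldn34c4 and Gm2411 were at -2.08, -2.25 and -2.23, all larger differences than that of Samt3 (-1.83). The differences of -2.25 and -2.23 were also larger than that of Samt4 (-2.17), whose size is uncertain.

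Genes next to the family on X differed among themselves. Of the 5 tested genes on either side of Samt3, 6 of 10 rose in round spermatids, against 40.2% of tested X-linked genes. In KO round spermatids 2 of the 10 were at least 2-fold lower, against 5.61% of X-linked genes. These were 4930595M18Rik, at 6.27 in KO and 9.04 in WT, and Ppp4r3c-ps, at 7.72 in KO and 10.03 in WT. Both also had their KO pachytene arrays below WT. The next tested gene to Samt3, Nr0b1, which encodes a nuclear receptor, was at 8.49 in KO and 8.21 in WT round spermatids. Around the stretch that holds the other Samt genes, 4 of 10 rose and 0 were at least 2-fold lower in KO, both near the X-linked shares. Cypt3, of the perinuclear theca family, was at 8.82 in KO and 9.49 in WT round spermatids. Sat1, which acetylates spermidine, was at 6.12 in KO and 6.13 in WT.

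**Figure D5:**
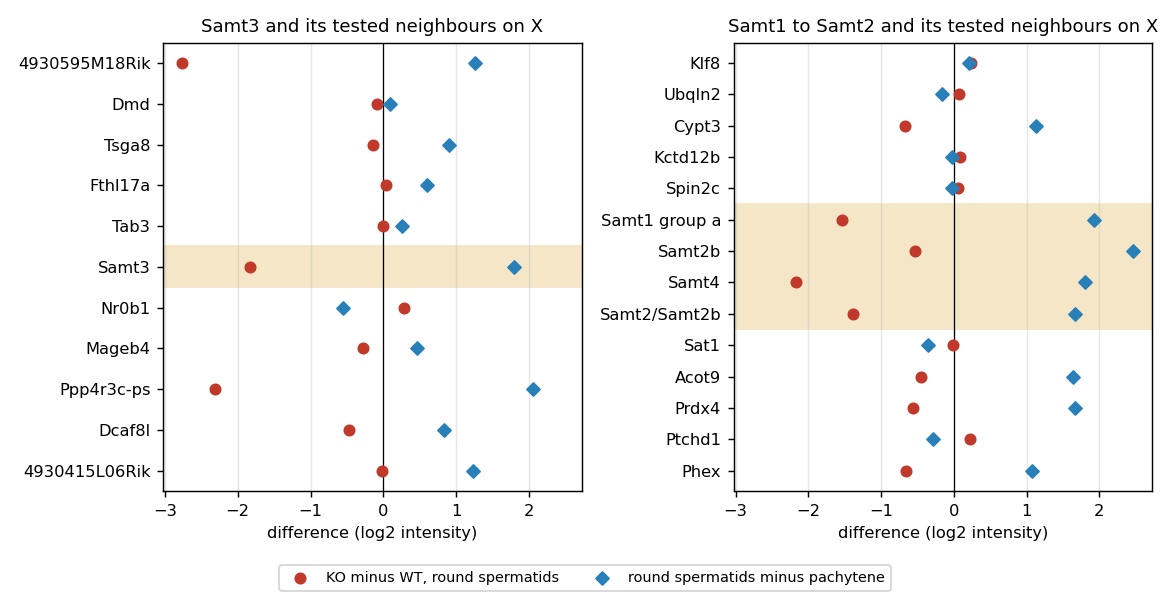
The 5 nearest tested genes on either side of Samt3 (left) and of the stretch with the other Samt genes (right), in RefSeq order from top to bottom, with Samt clusters shaded and Samt1 group a standing for the Samt1 copies. Red circles are KO minus WT in round spermatids and blue diamonds are round spermatids minus pachytene spermatocytes over both genotypes, in log2 intensity. Among the neighbours, only 4930595M18Rik and Ppp4r3c-ps, both near Samt3, have red circles beyond a 2-fold lower KO value.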

How the data were processed

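RNA was hybridised to Affymetrix MoGene 1.0 ST arrays, 1 array per sample. The authors deposited a linear intensity for each cluster. RMA in Affymetrix Expression Console 1.1 produced it, per the submitters' processing notes, and neither RMA options nor a genome build is given in the sources used. The planned tests assumed a log2 table, and the intensity was therefore converted to log2 first. Precision is limited by the number of arrays.

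The platform annotation gave 1 symbol to 21789 clusters, several to 1621, and did not list 12146. Each gene was represented by its cluster of highest mean, and 17925 genes that reached log2 6 on any array were tested, including Samt2b, Samt3 and Samt4. Tests used limma 3.58.1 in R 4.3.3 with p adjusted by Benjamini-Hochberg and called under 0.05. An additive fit gave cell type and genotype, and a fit with 4 group means gave KO against WT in pachytene spermatocytes. KO against WT in round spermatids has 1 array each and no p-value. SEs of shared clusters used the prior of the same fits. Because separate animals are not stated, a p-value covers the spread of these arrays alone, which may be technical. The contrast of round spermatids against pachytene spermatocytes was tested on simulated data with the same spread for every gene. The KO against WT contrasts were not tested in this way. Named genes are all Samt clusters, the 5 closest profiles per single-gene cluster, 5 tested neighbours per side and up to 4 members per list. Members and lists were chosen with earlier results of these data known. Promoter windows come from RefSeq (GRCm38.p6) and were aligned with Biopython 1.88.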

Additional observations from a re-analysis of the deposited data

How the results depend on the processing

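Of 252 recomputed differences of the 6 Samt clusters, 228 moved by less than 1 SD and 24 by 1 SD or more. Settings that change only the gene filter, the gene rows or the prior cannot move a Samt difference, so part of the 228 was fixed. Of the differences whose groups did not overlap, 0 changed sign. Leaving out an array cannot reverse such a difference, so this 0 is no check of its direction. Samt2b, whose groups overlapped, ranged from -0.46 to 0.51 in KO against WT pachytene spermatocytes and from -0.49 to 0.06 over both cell types. The count for round spermatids against pachytene spermatocytes was 6255, and 2786 to 8849 with 1 array left out, the lowest without the WT and 3577 without the KO round spermatid array. KO against WT in pachytene spermatocytes passed 0 genes, 0 to 2 with 1 array left out (2 without WT array 1) and 43 with the replicate number as a block. Array 1 minus array 2 correlated at -0.227 between the KO and WT pachytene arrays. This single correlation cannot tell whether equal numbers mark a pairing. KO against WT over both cell types passed 0 genes, 0 to 21 with 1 array left out (21 without KO pachytene array 1, 4 without KO pachytene array 2), 2 with the block, 2 with a trended and robust prior, 1 with log2(intensity + 16) and 8 with each single-gene cluster as a row. For KO against WT in round spermatids, 69 genes were at least 2-fold apart and 0 passed a limma fit that lends these arrays the pachytene spread. The cause of these shifts was not tested. The counts of Samt clusters without each array in turn, chosen after seeing the data, stayed at 6 of 6 for round spermatids above pachytene and at 5 or 6 for KO below WT pachytene arrays. Leaving out an array can only keep or raise such a count, so these counts are no check of the patterns.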

Other observations

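The 9-base word of the Samt promoter windows, TGGANACAT, was also in windows of 35 other X-linked genes, of which 6 were tested on the arrays. Of these, 1 rose in round spermatids against pachytene spermatocytes, Dmrtc1a by 0.58 (SE 0.17, limma adjusted p = 0.0305), against 40.2% of all tested X-linked genes. Dmrtc1a was at 8.48 in KO and 9.08 in WT round spermatids, and 0 of the 6 were at least 2-fold lower in KO, near the 5.61% of tested X-linked genes. Over the whole genome, 117 tested genes outside the family held the word, and 29 of them rose and 18 fell, against 17.8% and 17.1% of all tested genes. The 12-base word, CACTAANANTTG, was in windows of 12 other genes, of which 1 was tested. This gene rose by 0.72, and its log2 difference between KO and WT round spermatids was -0.97, with 1 array each. Of the 12 genes 1 was X-linked, Gm53059, which was not among the tested genes. The words were chosen from the Samt windows, so these counts describe how the word is spread and test no role for it.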
